A study of Homo sapiens with 6 samples.

Results

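The genes described here are 10 negative regulators of SMAD signalling, found in the count table by the Ensembl identifiers that a symbol table pairs with PMEPA1, SMAD7, SMAD6, SKIL, SKI, SMURF1, SMURF2, LDLRAD4, TGIF1 and BAMBI. Each symbol matched 1 row, so the group holds 10 of the 69292 rows of the table, and all 10 were among the 21223 genes that passed the filter on low counts. They were chosen by function, and the study's title names PMEPA1, so its values are no independent evidence for that gene. RNA was sequenced from MDA-MB-231, a human triple-negative (lacking oestrogen, progesterone and HER2 receptor dependence) breast cancer cell line of mesenchymal type. The 3 groups of 2 libraries were the parental line, the everolimus-resistant line DREVE, cultured with everolimus at 20 µM, and the ridaforolimus-resistant line DRRIDA, cultured with ridaforolimus at 30 µM. Both drugs are analogs of rapamycin, which inhibit the kinase mTOR through the protein FKBP12. The parental cells carry the treatment label DMSO, although the protocol says that they received no drug. Each resistant group is 1 derived line kept in its drug for several months, so resistance, the presence of the drug and drift of the line cannot be told apart. Nothing in the labels says whether libraries of a group came from separate cultures, and p-values then measure the spread between these libraries, which may be technical.

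TGF-beta binds a pair of receptor kinases that phosphorylate SMAD2 and SMAD3, which join SMAD4 and enter the nucleus to control transcription. The pathway is held back at every step, and several of the brakes are themselves switched on by SMADs, which makes a negative feedback loop. PMEPA1 and its paralogue LDLRAD4 are membrane proteins that trap receptor-activated SMADs and recruit ubiquitin ligases of the NEDD4 family. SMAD7 and SMAD6 are the inhibitory SMADs, which occupy receptors and bring the ligases SMURF1 and SMURF2 to them. SKI and SKIL (SnoN) are nuclear corepressors that bind SMAD complexes, TGIF1 is a homeodomain corepressor of SMAD2 and SMAD3, and BAMBI is a pseudoreceptor that lacks the kinase domain. In breast cancer cells the pathway is known both for growth arrest and for invasion.

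The sequences shown first are short coding motifs that PMEPA1 and LDLRAD4 share, because these related genes had the highest folds in the ridaforolimus line, with the like motifs of SMAD7 and SMAD6 beside them. PPxY motifs bind the WW domains of NEDD4-family ligases, and the PPNR motif is the SMAD interaction motif. The stretches below are 48 bases of the coding strand from GENCODE 29 transcripts on GRCh38, with the 4 codons of the motif in capitals. Each is named by the codon of the motif's first proline, the first codon in capitals.
PMEPA1 PPxY at codon 158: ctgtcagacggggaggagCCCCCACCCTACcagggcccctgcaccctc
LDLRAD4 PPxY at codon 180: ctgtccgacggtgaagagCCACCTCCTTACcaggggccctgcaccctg
PMEPA1 PPNR at codon 186: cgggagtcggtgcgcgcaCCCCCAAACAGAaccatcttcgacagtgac
LDLRAD4 PPNR at codon 208: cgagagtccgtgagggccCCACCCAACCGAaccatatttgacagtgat
PMEPA1 PPxY at codon 229: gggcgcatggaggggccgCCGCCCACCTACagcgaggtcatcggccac
LDLRAD4 PPxY at codon 252: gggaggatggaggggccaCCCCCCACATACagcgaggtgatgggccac
SMAD7 PPxY at codon 208: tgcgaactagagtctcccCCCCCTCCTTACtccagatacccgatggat
SMAD6 PPxY at codon 276: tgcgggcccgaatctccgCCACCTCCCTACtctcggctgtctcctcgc

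The PMEPA1 and LDLRAD4 stretches lie on the minus strand at chr20:57652416-57652463, chr20:57652332-57652379 and chr20:57652203-57652250, and on the plus strand at chr18:13645256-13645303, chr18:13645340-13645387 and chr18:13645472-13645519. Both genes held 2 PPxY codon motifs and 1 PPNR, in the same order. Of the 48 bases, 40, 37 and 41 were the same in the pair, and 72.1% of 833 aligned coding bases were identical over the whole genes. The SMAD7 and SMAD6 stretches shown each cross an exon junction. SMAD7 held 1 PPxY and SMAD6 held 2, both without PPNR, while the longest coding transcripts of SKIL, SKI, SMURF1, SMURF2, TGIF1 and BAMBI held 0 of either kind.

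Windows of 300 bases around RefSeq transcription starts (GRCh38.p14) were searched for letters that SMADs bind, since SMADs switch on several of these genes. Whether SMADs act at these windows was not tested. CAGAC, counted on both strands, was present in 20 of the 28 windows of 9 members, some of which overlap, and in 45.3% of all 35116 windows of that length. The palindrome GTCTAGAC was present in 1 member window, that of SMAD6, and in 0.202% of all windows. The palindrome holds neither CAGAC nor its reverse. The AP-1 motif TGANTCA was found in 3 windows, all of TGIF1, against 7.71% of all windows. A match is a description of the sequence and not a binding site. The stretches shown, of 30 bases each with the matched letters in capitals, are the paired matches of PMEPA1 at chr20:57709997-57710026 (minus strand), matches of LDLRAD4 at chr18:13217587-13217616 (plus) and of SMAD7 at chr18:48951077-48951106 (minus), and the palindrome of SMAD6 at chr15:66702213-66702242 (plus).
PMEPA1: ctagcgctgacgtCAGACcGTCTGcctgcc
LDLRAD4: gaggagttggagaCAGACacagccgcggcg
SMAD7: cttcttattttgcCAGACgtctcatgcggg
SMAD6: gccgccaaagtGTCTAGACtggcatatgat

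Depth lay between 13134567 and 15556246 counts per library. Replicate libraries differed from each other well beyond sampling noise (chi-square per degree of freedom 13.5 to 33.5). The line's mesenchymal markers (8 listed, all detected) summed to 3150 and 3159 CPM in parental, 2765 and 4093 CPM in everolimus and 4551 and 4481 CPM in ridaforolimus libraries, where CPM is the count scaled by the TMM-adjusted library size. PGR stayed at or under 0.146 CPM and ESR1 at or under 0.916 CPM, and ERBB2 lay between 44.3 and 62.9 CPM. Markers of fibroblasts summed to 0.634 to 1.72 CPM with LUM at 0, those of immune cells to 1.22 to 2.83 CPM with CD3E and MS4A1 at 0, and those of endothelial cells to 5.55 to 16.8 CPM. The epithelial markers (7 listed) summed to 716 and 632 CPM in parental, 528 and 674 CPM in everolimus and 500 and 529 CPM in ridaforolimus libraries, with CDH1 at or under 0.229 CPM. The keratins KRT8 and KRT18 make up most of that sum. Of the 6 epithelial markers tested, 5 were below 0 in the everolimus line (median log2 fold change -1.16, 4 at an unadjusted p under 0.05, 0 by edgeR's adjusted p and 3 by DESeq2) and 4 in the ridaforolimus line (median -0.61; 3, 0 and 2). Over all genes, estimates were above 0 for 52.3% and 51.3% in the 2 lines, and 8.79% and 14.5% had an unadjusted p under 0.05. By adjusted p, edgeR passed 0.00471% and 0.320%, and DESeq2 called 0.577% and 1.48% lower among the genes it gave an adjusted p. KRT19 (0.49) and ESRP1 (0.48) were above 0 in the ridaforolimus line. Of the 8 mesenchymal markers, 6 were above 0 in each line (median 0.42 in the everolimus and 0.27 in the ridaforolimus line). The 2 below 0 were MSN (-0.62) and EGFR (-0.21) in the everolimus line, and S100A4 (-0.77) and EGFR (-0.18) in the ridaforolimus line. Much of the higher sum in the ridaforolimus libraries was MSN, at 733 CPM in parental, 476 CPM in everolimus and 1526 CPM in ridaforolimus cells. The mostly lower epithelial and mostly higher mesenchymal markers in both lines, and the higher mesenchymal sum in the ridaforolimus libraries, moved with several results below. Their part in those results was not tested.

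Levels were set side by side per kilobase of merged exons of the gene. SMURF2 had the highest mean over the 6 libraries, 35.2 CPM per kilobase, followed by SKI (group means of 16.3, 17.3 and 14.4 in parental, everolimus and ridaforolimus cells), SKIL at 12.1, TGIF1 at 10.4, SMURF1 at 10.3 and PMEPA1 at 6.26. SMAD7 (2.50), SMAD6 (1.38), BAMBI (1.00) and LDLRAD4 (0.216) were the lowest. In parental cells TGIF1 (10.7 ± 2.44, SD, n = 2), SMURF1 (10.7 ± 0.385) and SKIL (10.4 ± 1.77) did not differ beyond their spread. The order depends on gene length: per kilobase of the longest coding transcript, TGIF1 ranked 2 and SMAD6 ranked above SMAD7. PMEPA1 therefore stood in the middle of the group, below SMURF2, the corepressors and SMURF1, and above the inhibitory SMADs, in each of the 3 group means.

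**Figure D1:**
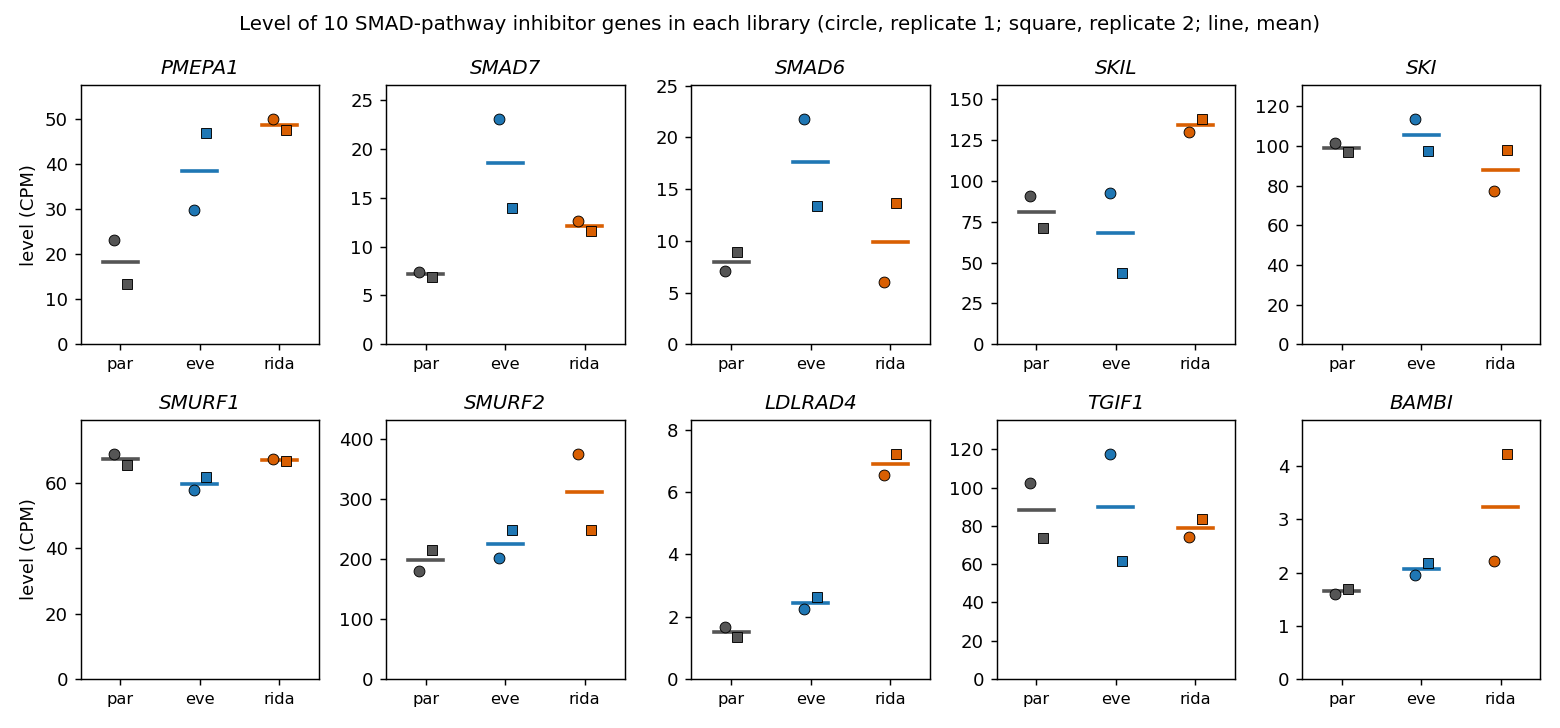
Level of each of the 10 genes in CPM (y axes, each starting at 0) in parental (par), everolimus-resistant (eve) and ridaforolimus-resistant (rida) cells. Circles are replicate 1, squares replicate 2 and lines group means. PMEPA1, SMAD7, LDLRAD4 and BAMBI have every resistant library above every parental one.

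PMEPA1 (ENSG00000124225, chr20:57648392-57711536, minus strand) had 23.2 and 13.3 CPM in the parental libraries, 29.8 and 47.1 CPM in the everolimus libraries and 50.2 and 47.6 CPM in the ridaforolimus libraries. All 4 resistant libraries were above both parental ones. Everolimus replicate 2 stood beside the ridaforolimus libraries while replicate 1 stood nearer to parental replicate 1. The mean was 2.11-fold higher in the everolimus line (log2 fold change 1.08 ± 0.32, SE; adjusted p = 0.444) and 2.67-fold higher in the ridaforolimus line (1.42 ± 0.32; adjusted p = 0.117; edgeR's quasi-likelihood test). Neither passed the threshold of 0.05 over all genes. DESeq2 called the second (adjusted p = 0.00633). In bulk RNA, more cells with the transcript and more RNA per cell cannot be told apart.

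NKILA, a long non-coding RNA on the opposite strand that shares 343 exon bases (6.10%) with PMEPA1, was covered by 3 and 6 reads in the parental pair, 7 and 15 in the everolimus pair and 25 and 30 in the ridaforolimus pair, with all 4 resistant libraries above the parental ones. Its log2 fold changes were 1.18 ± 0.61 and 2.61 ± 0.56, which did not pass (adjusted p = 0.627 and 0.111). PMEPA1 itself had 189 to 712 counts per library. The strand setting of the counting is not given in the sources used here, so how reads of the shared bases were assigned is not known.

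LDLRAD4 (ENSG00000168675, chr18:13217498-13652755, plus strand), the paralogue of PMEPA1, had the highest fold of the 10 genes in the ridaforolimus line. The parental libraries had 1.68 and 1.34 CPM (22 and 19 counts), the everolimus libraries 2.25 and 2.64 CPM (31 and 40 counts) and the ridaforolimus libraries 6.56 and 7.23 CPM (86 and 99 counts). The 3 groups did not overlap, with parental lowest and ridaforolimus highest. The ridaforolimus mean was 4.57-fold that of parental cells, and the log2 fold change of 2.19 ± 0.34 (95% interval 1.41 to 2.96) had an adjusted p of 0.0507, just outside the threshold. It passed with no filter beyond 1 count (adjusted p = 7.50e-05), with DESeq2 (2.38e-04), in the fit to these groups alone (0.0495) and without everolimus replicate 1 or 2 (0.0269 or 0.0324). It did not pass with RLE size factors (0.0508), limma-voom (0.0512), at least 5 CPM in 2 libraries (0.0532) or a replicate block (0.0996), or without parental replicate 1 or 2 (0.331 or 0.438) or without ridaforolimus replicate 1 or 2 (0.0764 or 0.194). Only 1.39% of all genes tested had a larger change in either direction. Against the everolimus line the difference was 1.49 ± 0.32 (adjusted p = 0.0893, and 0.0219 by DESeq2), and between everolimus and parental cells it was 0.70 ± 0.35 (adjusted p = 0.616). Its antisense neighbour AP001010.1 had 0 counts in every library.

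Per kilobase, PMEPA1 was far more abundant than LDLRAD4 in every library, by unequal amounts. The ratio of PMEPA1 to LDLRAD4 was 41.2 and 29.7 for the parental pair, 39.6 and 53.1 for the everolimus pair and 22.8 and 19.6 for the ridaforolimus pair. Both ridaforolimus ratios were below the other 4. The merged exons of LDLRAD4 span 16759 bases and its longest coding transcript 8486, so the size of the ratio is uncertain, while its change between libraries does not depend on the lengths.

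**Figure D2:**
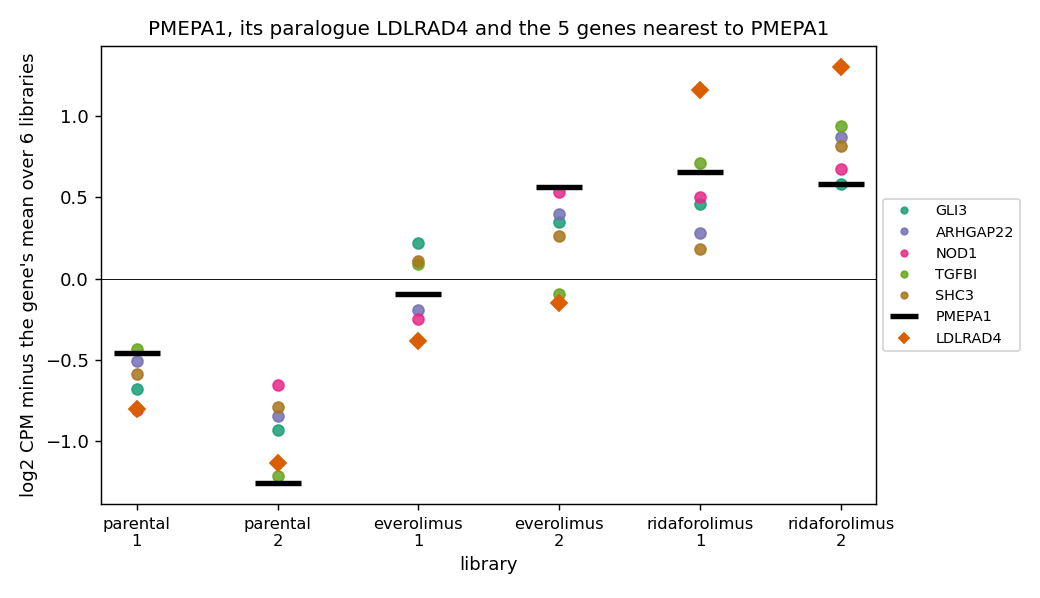
Level of PMEPA1 (black bars), LDLRAD4 (diamonds) and the 5 genes with the smallest root-mean-square difference from PMEPA1 (circles) in each library, as log2 CPM minus the gene's mean over the 6 libraries (y axis). All 7 genes are below 0 in both parental libraries and above 0 in both ridaforolimus libraries, with LDLRAD4 the highest in the latter.

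The group means of both inhibitory SMADs were highest in everolimus-resistant cells, though neither differed between the resistant lines by the test. SMAD7 (ENSG00000101665, chr18:48919853-48952052) had 7.41 and 6.90 CPM in parental, 23.1 and 13.9 CPM in everolimus and 12.7 and 11.6 CPM in ridaforolimus libraries. The groups did not overlap, and the parental and ridaforolimus pairs were each tight, while the everolimus libraries lay apart. SMAD7 was 2.59-fold higher in the everolimus line (log2 1.37 ± 0.29, adjusted p = 0.298 by edgeR and 0.0156 by DESeq2) and 1.70-fold higher in the ridaforolimus line (0.76 ± 0.29, adjusted p = 0.298 by edgeR and 0.314 by DESeq2). The lines differed by -0.61 (interval -1.27 to 0.05, adjusted p = 0.396).

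SMAD6 (ENSG00000137834, chr15:66702228-66782848), whose best-known role is to inhibit BMP receptors, had 7.11 and 8.87 CPM in parental, 21.8 and 13.4 CPM in everolimus and 6.02 and 13.7 CPM in ridaforolimus libraries. Both everolimus libraries exceeded the parental ones, whereas the ridaforolimus libraries lay on either side of them. SMAD6 differed from parental cells by 1.13 ± 0.41 on the log2 scale in everolimus-resistant cells (adjusted p = 0.518) and by 0.30 ± 0.42 in ridaforolimus-resistant cells (adjusted p = 0.786). The second turned to -0.40 without ridaforolimus replicate 2. In the everolimus line, replicate 1 had the higher value for SMAD7 and SMAD6 and the lower for PMEPA1.

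The membrane pseudoreceptor BAMBI (ENSG00000095739, chr10:28677342-28682939) was near the lower end of what could be counted, with 21 and 24, 27 and 33, and 29 and 58 counts in the parental, everolimus and ridaforolimus libraries. These are 1.60 and 1.69, 1.96 and 2.18, and 2.21 and 4.24 CPM. In CPM the groups did not overlap, but the counts of the everolimus and ridaforolimus libraries did (33 in the higher everolimus and 29 in the lower ridaforolimus library). Most of the ridaforolimus line's difference was carried by 1 library. The log2 fold change of 0.97 ± 0.42 against parental cells (adjusted p = 0.342) became 0.43 without ridaforolimus replicate 2.

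Among the nuclear corepressors, SKIL (ENSG00000136603, chr3:170357678-170396835) was higher in the ridaforolimus libraries. It had 90.9 and 71.4 CPM in parental, 92.7 and 43.4 CPM in everolimus and 130 and 138 CPM in ridaforolimus libraries. The ridaforolimus libraries were above the other 4, and everolimus replicate 2 was the lowest of all. The log2 fold change was 0.73 ± 0.33 against parental cells (adjusted p = 0.359) and 0.98 ± 0.33 against the everolimus line (adjusted p = 0.241). The second became 1.62 without everolimus replicate 1 (adjusted p = 0.0449) and 0.53 without replicate 2 (adjusted p = 0.425).

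SKI, its paralogue (ENSG00000157933, chr1:2228695-2310119), had 101 and 96.8 CPM in parental, 114 and 97.3 CPM in everolimus and 77.4 and 98.0 CPM in ridaforolimus libraries, which overlap throughout. SKI differed from parental cells by 0.09 on the log2 scale (interval -0.36 to 0.54) in everolimus-resistant cells and by -0.18 (-0.63 to 0.28) in ridaforolimus-resistant cells. The ratio of SKIL to SKI per kilobase was 0.700 and 0.577 for the parental pair, 0.637 and 0.348 for the everolimus pair, and 1.31 and 1.10 for the ridaforolimus pair. TGIF1 (ENSG00000177426, chr18:3411608-3459978) had 102 and 73.9, 118 and 61.4, and 74.3 and 83.8 CPM in the 3 groups. Its everolimus libraries were the highest and the lowest of the 6, and no direction held across the alternatives (log2 0.02 ± 0.31 and -0.16 ± 0.31, adjusted p = 0.993 and 0.859).

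Of the ubiquitin ligases, SMURF2 (ENSG00000108854, chr17:64542295-64662068) had 181 and 215 CPM in parental, 202 and 248 CPM in everolimus and 376 and 248 CPM in ridaforolimus libraries. Both ridaforolimus values were above the parental ones, and replicate 1 was far above all other libraries. The log2 fold change was 0.66 ± 0.25 (adjusted p = 0.290) and fell to 0.32 without ridaforolimus replicate 1. SMURF1 (ENSG00000198742, chr7:99027438-99144100) was the steadiest of the 10 genes, with 69.0 and 65.6, 57.7 and 61.7, and 67.2 and 66.6 CPM. Its everolimus libraries were the lowest, by 0.17 on the log2 scale (interval -0.57 to 0.22, adjusted p = 0.822), and the ridaforolimus difference was -0.01 (interval -0.40 to 0.39). SMURF1 shares 11.7% of its exon bases with TRRAP and SMURF2 shares 2.40% with CEP95, both on the opposite strand, and neither neighbour passed the threshold in any comparison.

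**Figure D3:**
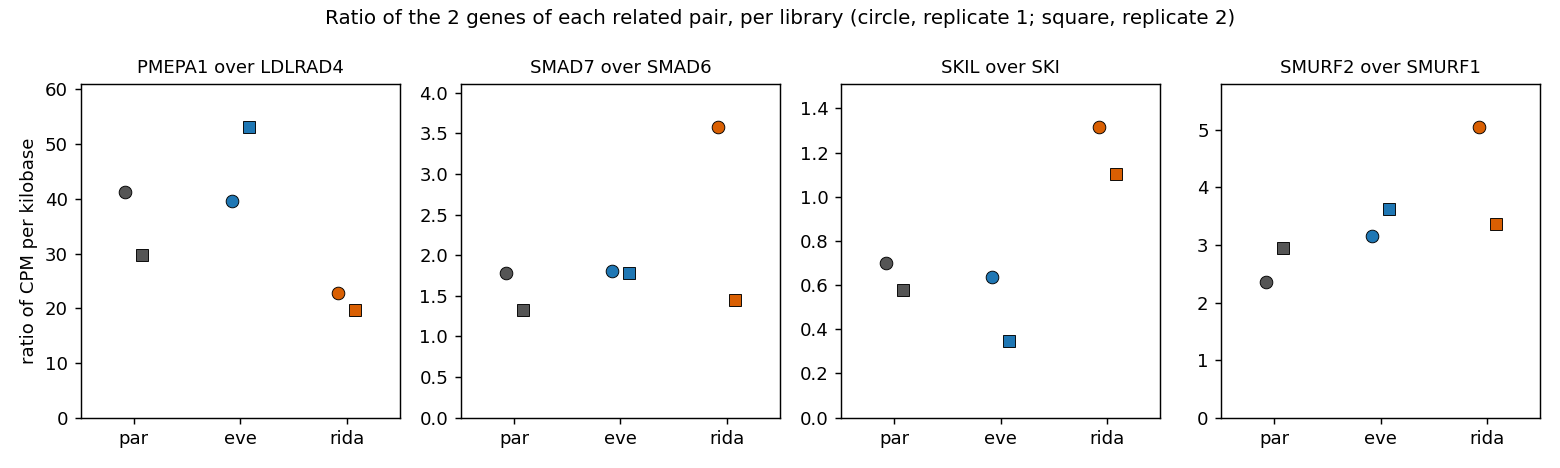
Ratio of CPM per kilobase (y axes, each starting at 0) between the 2 genes of each related pair in every library, with circles for replicate 1 and squares for replicate 2. The ratio of SKIL to SKI is highest in both ridaforolimus libraries (1.31 and 1.10), and that of PMEPA1 to LDLRAD4 is lowest there (22.8 and 19.6).

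As a group, 0 of the 10 genes passed the adjusted threshold in edgeR in any comparison. Over all genes 0.00471% passed in everolimus against parental cells, 0.320% in ridaforolimus against parental cells and 0.744% between the lines. DESeq2 called 1 member higher in the first (SMAD7; 0.280% of genes were called higher), 2 in the second (PMEPA1 and LDLRAD4; 1.52%) and 1 in the third (LDLRAD4, higher with ridaforolimus; 1.90%), and 0 lower. These shares are of the 17519, 19165 and 19988 genes to which DESeq2 gave an adjusted p. With limma-voom 0 members passed. At an unadjusted p under 0.05, 3 members were higher and 0 lower in the everolimus line, where 4.26% of all genes were higher at such a p, and 5 were higher and 0 lower in the ridaforolimus line (7.35% of all genes higher). The first 3 were PMEPA1, SMAD7 and SMAD6, and the second 5 were PMEPA1, SMAD7, SMURF2, LDLRAD4 and BAMBI.

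The 2 everolimus libraries were both above the parental ones for 5 members (20.6% of all genes) and both below for 1, SMURF1 (20.5%). In the ridaforolimus line 6 members were above (25.1%) and 0 below (24.3%). Estimates were above 0 for 8 of 10 and 7 of 10 members, against 52.3% and 51.3% of all genes. The median log2 fold change of the members was 0.26 in the everolimus line and 0.69 in the ridaforolimus line, where that of all genes was 0.02 and 0.01. Both comparisons use the same 2 parental libraries, so a low or high parental value moves both. PMEPA1 had the lowest of its 6 values in parental replicate 2, and without it the log2 fold change in the ridaforolimus line was 1.07.

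**Figure D4:**
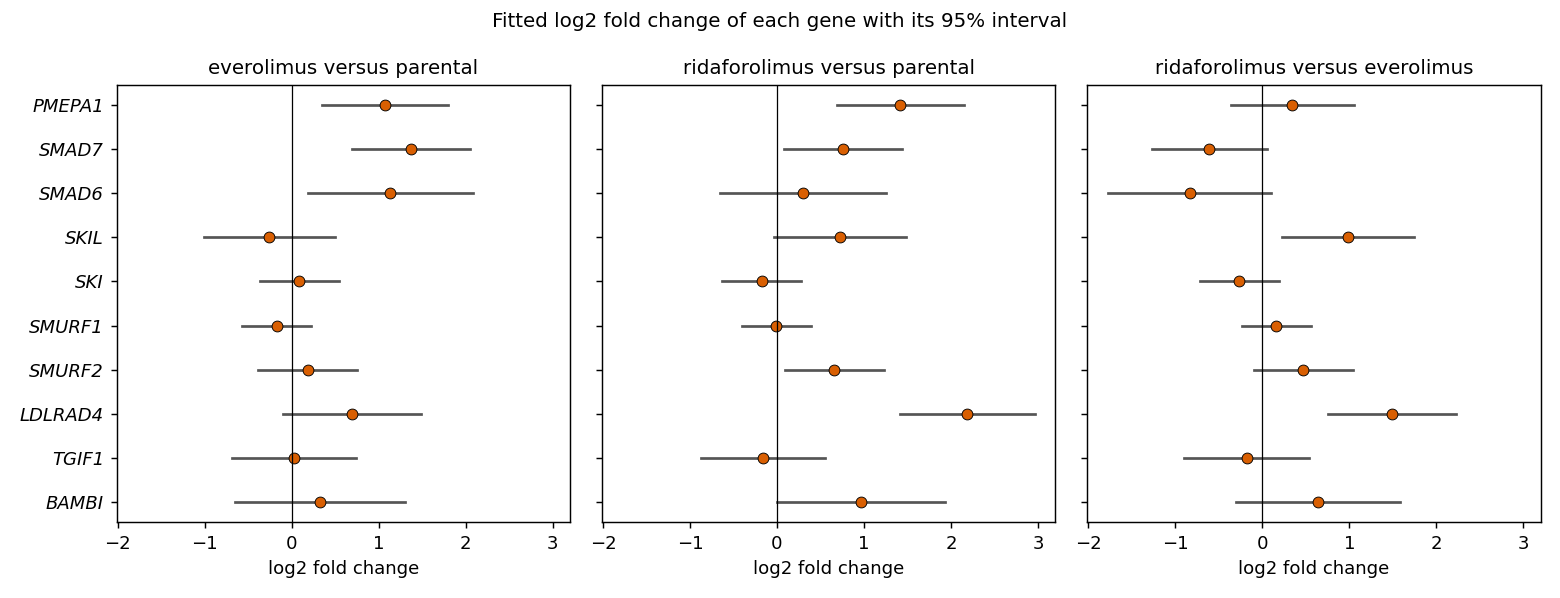
Fitted log2 fold change (points, x axis) of the 10 genes (y axis) with its 95% interval (lines) in the 3 comparisons. Against parental cells the interval lies above 0 for PMEPA1 and SMAD7 in both lines, for SMAD6 in the everolimus line and for SMURF2, LDLRAD4 and BAMBI in the ridaforolimus line. None of the 10 passed the adjusted threshold in edgeR.

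Between the lines, 6 members were higher in both ridaforolimus libraries than in both everolimus ones (20.9% of all genes) and 1, SMAD7, was lower (20.4%). For some of the 6 the lower ridaforolimus and the higher everolimus library were almost level. These were PMEPA1 (47.6 and 47.1 CPM), SMURF2 (248.3 and 248.1 CPM) and BAMBI (2.21 and 2.18 CPM), where the gap was smaller than the spread between replicates. Estimates were above 0 for 6 of 10 members, against 48.3% of all genes. The members with an unadjusted p under 0.05 were SKIL and LDLRAD4, both higher in the ridaforolimus line (7.58% of all genes in that direction). PMEPA1 differed by 0.34 ± 0.31 (interval -0.36 to 1.05), so a higher level in either line is within the interval. The differences were positive for PMEPA1, LDLRAD4, BAMBI, SKIL, SMURF2 (0.47) and SMURF1 (0.16). They were negative for SMAD7 (-0.61), SMAD6 (-0.83 ± 0.41, adjusted p = 0.419), SKI (-0.27) and TGIF1 (-0.18). The doses of the drugs were not matched, at 20 and 30 µM.

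The 5 genes whose levels ran closest to PMEPA1, by root-mean-square difference of centred log2 CPM over the 6 libraries among 9877 genes with a mean of at least 10 CPM, were GLI3 (0.24), ARHGAP22 (0.27), NOD1 (0.30), TGFBI (0.32) and SHC3 (0.33). GLI3 is a transcription factor of Hedgehog signalling, ARHGAP22 an inactivator of Rac, NOD1 a sensor of bacterial cell walls, TGFBI a matrix protein named for its induction by TGF-beta, and SHC3 an adaptor of receptor kinases. GLI3 had 23.1 and 19.4, 43.1 and 47.1, and 50.8 and 55.3 CPM in the 3 groups. Among the members LDLRAD4 (r = 0.84 over 6 libraries), BAMBI (0.65), SMURF2 (0.64) and SMAD7 (0.56) correlated most with PMEPA1. SKI (-0.36), TGIF1 (-0.24) and SMURF1 (-0.08) had negative values. These values are a description: the 6 libraries form 3 groups of 2 and are not independent points.

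Of all genes tested, 8.79% had an unadjusted p under 0.05 in the everolimus and 14.5% in the ridaforolimus line against parental cells. In the first, DESeq2 called 0.280% higher and 0.577% lower of the 17519 genes to which it gave an adjusted p. In the second it called 1.52% higher and 1.48% lower of 19165 such genes. The counts of the other pathway lists are to be read against these shares. Of 27 tested ligands, receptors and SMADs, 0 passed against parental cells in either line by edgeR (median 0.10 and 0.19). Their estimates ranged from -2.43 to 0.91 in the everolimus line and from -2.84 to 2.45 in the ridaforolimus line. An unadjusted p under 0.05 was found for 4 and 4 of them, and DESeq2 called 1 and 2. TGFB1 had 73.8 ± 8.0, 79.3 ± 3.9 and 99.8 ± 43 CPM in the 3 groups, and TGFB2 had 111 ± 42, 196 ± 27 and 83.2 ± 21 CPM (SD, n = 2). The receptors TGFBR1 (0.17 and -0.09) and TGFBR2 (-0.12 and -0.30) and the BMP receptor BMPR2 (0.11 and 0.39) had small log2 fold changes in the everolimus and ridaforolimus lines. SMAD3, a receptor-activated SMAD like SMAD2, had 485 ± 17, 519 ± 2.5 and 780 ± 180 CPM, with a log2 fold change of 0.69 ± 0.22 in the ridaforolimus line (adjusted p = 0.232). SMAD2 (0.14 and 0.19) and SMAD4 (0.09 and 0.25) lay nearer to 0. Between the lines 1 gene of this list passed, the ligand BMP6, at 3.55 ± 0.26 CPM in parental, 0.647 ± 0.30 CPM in everolimus and 5.73 ± 1.3 CPM in ridaforolimus cells. It was higher in the ridaforolimus than in the everolimus line (3.12 ± 0.43, adjusted p = 0.0286), and against parental cells it stood at -2.43 (adjusted p = 0.205) and 0.69 (adjusted p = 0.435).

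Of 31 tested SMAD target genes, 0 passed in the everolimus line (11 estimates above 0, median -0.18; 3 at an unadjusted p under 0.05 in edgeR and 0 by DESeq2) and 1 rose in the ridaforolimus line (20 above 0, median 0.11; 9 at an unadjusted p under 0.05, of which 4 were higher and 5 lower, and 3 by DESeq2). The gene that rose was LTBP2, a matrix protein that binds fibrillin (2.31 ± 0.22, adjusted p = 0.0109). TGFBI stood at 0.77 ± 0.27 and 1.60 ± 0.27 (adjusted p = 0.507 and 0.0621). The matricellular protein CCN2 (0.26 and 0.11) and the BMP target ID1 (-0.26 and 0.81) did not pass. The medians of the targets thus lay below those of the 10 inhibitors in both lines. That difference was not tested.

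Of 20 other tested inhibitors 0 passed against parental cells in edgeR, and DESeq2 called 0 in either line. In edgeR 4 and 1 had an unadjusted p under 0.05 in the everolimus and ridaforolimus lines, against 8.79% and 14.5% of all genes. The phosphatase PPM1A (-0.04 and -0.07), the SMAD4 ligase TRIM33 (0.06 and -0.08) and the corepressor TGIF2 (-0.18 and -0.21) lay close to 0. FST, which binds activin, had 24.7 ± 15 CPM in the everolimus and 3.15 ± 0.94 CPM in the ridaforolimus line, against 7.83 ± 1.8 CPM in parental cells, and was lower in the second line than in the first (-2.97 ± 0.48, adjusted p = 0.0403).

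Among 20 partners of the inhibitors, RLIM, a ubiquitin ligase known to act on SMAD7, rose in the ridaforolimus line from 167 ± 2.8 to 424 ± 46 CPM (1.34 ± 0.19, adjusted p = 0.0316). RNF111 (Arkadia), the ligase that degrades SMAD7, SKI and SKIL, stood at -0.13 and 0.06, and USP15, which removes ubiquitin from receptors and SMADs, at -0.24 and -0.34. NEDD4-family ligases bind PPxY motifs, but binding to those printed above was not tested. Of 7 such ligases listed apart from SMURF1 and SMURF2, 0 passed the threshold in edgeR. In the everolimus and ridaforolimus lines, 1 and 3 had an unadjusted p under 0.05 in edgeR, against 8.79% and 14.5% of all genes. DESeq2 called 0 and 1 of the ligases. In the ridaforolimus line 6 of 7 estimates were above 0 (median 0.45), with HECW1 at 1.38 ± 0.22 (adjusted p = 0.0542), HECW2 at 0.57, NEDD4 at 0.51 ± 0.20 (adjusted p = 0.301), WWP1 at 0.45 ± 0.18, WWP2 at 0.11, ITCH at 0.11 and NEDD4L at -0.13. In the everolimus line 2 of 7 were above 0 (median -0.15), with HECW1 at 0.57 ± 0.22 (adjusted p = 0.531), HECW2 at -0.50, NEDD4 at -0.38, NEDD4L at 0.09, WWP1 at -0.03, WWP2 at -0.15 and ITCH at -0.17. The study's title also names PI3K/AKT. Of 17 such genes 0 passed against parental cells in edgeR (median -0.01 in both lines), and DESeq2 called 0 and 1. An unadjusted p under 0.05 in edgeR was found for 2 and 5 of them, against 8.79% and 14.5% of all genes. The catalytic subunit PIK3CA stood at -0.01 and 0.46, the kinase AKT1 at -0.03 and -0.21 and the drug target MTOR at 0.02 and -0.32. Another catalytic subunit, PIK3CD, was higher in the ridaforolimus than in the everolimus line (1.47 ± 0.25, adjusted p = 0.0476).

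**Figure D5:**
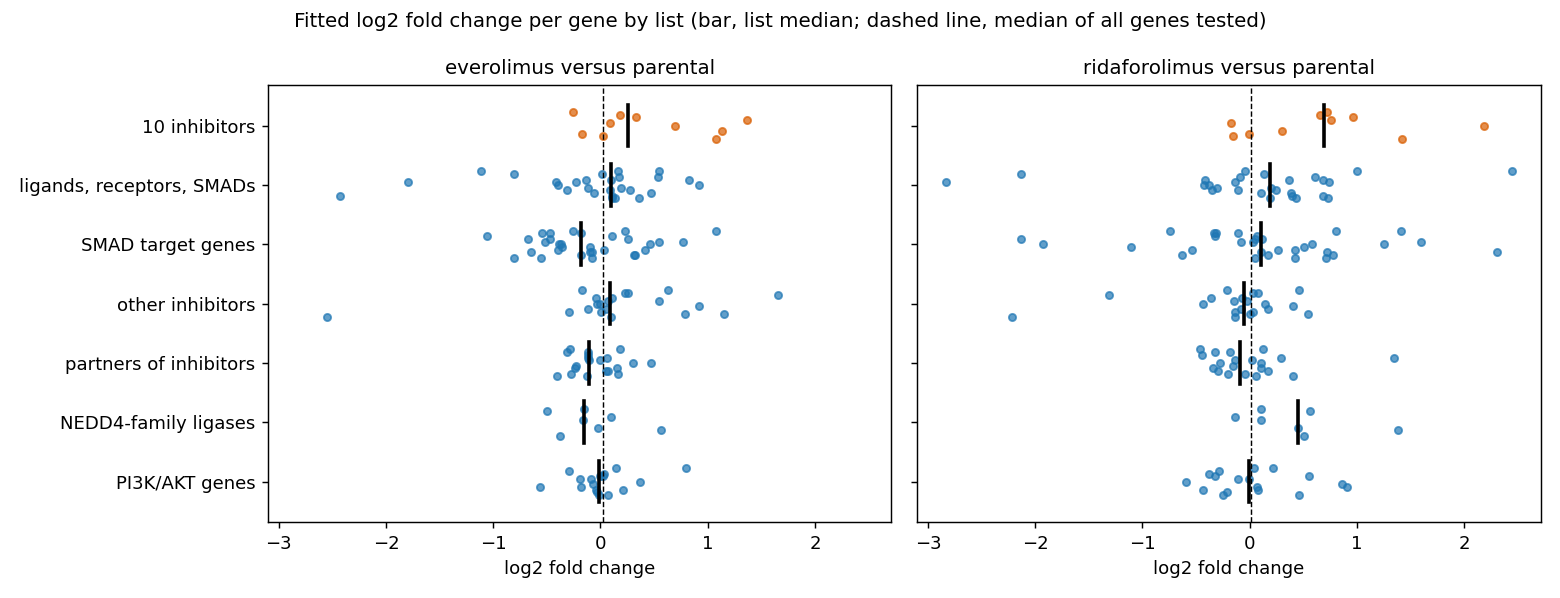
Fitted log2 fold change (x axis) of each tested gene, 1 point per gene, for the 10 inhibitors (orange) and 6 other lists of the pathway (blue) in each resistant line against parental cells. Bars mark list medians and the dashed line the median of all genes. The median of the 10 inhibitors is 0.26 in the everolimus and 0.69 in the ridaforolimus line.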

How the data were processed

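The table that the authors deposited holds unnormalised counts, with Ensembl genes as rows and libraries as columns, from a stranded mRNA kit per the labels' protocols. The submitters' processing notes list HTSeq 0.13.5, STAR 2.7.9a, Trim Galore 0.6.6 and DESeq2, with no role for any, and the build GRCh38. For the strand setting and annotation release, the entry is: not given in the sources used here.

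The fit used edgeR 4.0.16 in R 4.3.3 (TMM, filterByExpr, glmQLFit and glmQLFTest, two-sided) on all 6 libraries with 3 group means and 3 residual degrees of freedom, and p-values were adjusted by Benjamini-Hochberg over 21223 genes with a threshold of 0.05. DESeq2 1.42.0 and limma 3.58.1 (voom), other size factors and filters, a fit to 2 groups, a replicate block and leaving out each library were alternatives. Fold changes are given ± SE and levels ± SD. Positions and lengths are from GENCODE 29, promoter windows from RefSeq GRCh38.p14 (9 of 10 members matched, all but SKI).

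The members, lists and tests were chosen with earlier results of these data known. Named genes are the 10 members, every gene of the other pathway lists past the threshold, a fixed set of pathway genes, and the 5 genes nearest to PMEPA1 (log2 CPM, prior count 2; no pseudogenes, clones, LINC or antisense names). Overlapping genes were named for their position. HECW1, HECW2, the keratins, ESRP1, MSN, S100A4 and EGFR were named after their values were seen. Group medians of lists were not tested. Values of 2 genes of the fixed set are not reported here.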

Additional observations from a re-analysis of the deposited data

Results flagged for a closer look

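The effects of the 2 lines against the same parental libraries differed for 5 genes of the pathway lists, by the direct contrast of ridaforolimus with everolimus cells (edgeR's quasi-likelihood test, adjusted p under 0.05). The log2 difference was 3.12 for BMP6, -2.97 for FST, 2.40 for LTBP2, 1.47 for PIK3CD and 1.46 for RLIM. None of the 10 inhibitors is among them in that test, in which 0.744% of all genes passed. Groups of 2 libraries are too small for a search for single libraries that stand apart.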

How the results depend on the processing

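The direction of PMEPA1 held in the 3 comparisons in every alternative with an estimate per gene. The crossed pairing described below gave counts only. When single libraries were left out, PMEPA1 had log2 fold changes of 0.70 to 1.53, 1.07 to 1.87 and 0.04 to 0.71. With no filter on low counts it passed in both lines (1.07, adjusted p = 0.00801, and 1.41, adjusted p = 2.04e-05), and with DESeq2 in the ridaforolimus line (1.41); the cause was not tested. In the order everolimus against parental, ridaforolimus against parental and ridaforolimus against everolimus, the count of members past the threshold, 0 in each, became 3, 2 and 2 with no filter and 1, 2 and 1 with DESeq2. The fit to 2 groups gave 1 member in the second comparison, and leaving out single libraries gave 0 to 0, 0 to 1 and 0 to 1.

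The counts over all genes were 1, 68 and 158. They became 493, 1195 and 1362 with no filter, 150, 574 and 657 with DESeq2, and 0, 127 and 0 with only the groups compared, while at least 5 CPM in 2 libraries gave 0 in the first and 81 in the third. Leaving out single libraries gave 0 to 3, 1 to 276 and 19 to 123. With a replicate block the counts were 0, 28 and 49 and 0 members passed. Deviations of same-numbered libraries correlated at 0.33 between parental and everolimus groups and at -0.17 and -0.19 between these and the ridaforolimus group. The labels do not say what the numbers mark, and they were not taken as pairs. A pairing with the ridaforolimus numbers crossed, added after the data were seen, gave 150, 814 and 1044 genes and 0, 2 and 2 members. Crossing turns the negative correlations positive, so a smaller spread is built in and these counts carry no weight.

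Estimates near 0 changed sign. TGIF1 in the everolimus line was -0.032 with limma-voom and -0.0077 with the replicate block, and SMURF1 in the ridaforolimus line was 0.035 with at least 5 CPM in 2 libraries. Without single libraries the everolimus values ranged from -0.90 to 0.19 for SKIL, -0.021 to 0.19 for SKI and -0.51 to 0.41 for TGIF1. The ridaforolimus values ranged from -0.40 to 0.76 for SMAD6, -0.048 to 0.021 for SMURF1 and -0.38 to 0.089 for TGIF1, and TGIF1 between the lines from -0.57 to 0.35. Depth limits LDLRAD4 and BAMBI most, with 19 to 99 counts per library.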
